A study of Mus musculus with 6 samples.

Results

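The MYC, MAX and MXD network was followed here in thymocytes that had not yet been selected. Its members were chosen by gene symbol in the platform annotation: Myc, Mycn, Max, Mxd1, Mxd3, Mxd4, Mxi1, Mnt and Mlx, 9 of the 16593 genes named on the array, read by 13 of its 25697 probes. MYC and its relative MYCN are transcription factors of growth and proliferation that bind DNA only when paired with MAX. MXD1, MXD3, MXD4, MXI1 and MNT compete for the same partner, bind the same E-box letters as pairs with MAX and recruit SIN3 corepressors, so they are known as antagonists of MYC. MLX is a MAX-like protein that pairs with the glucose sensors MondoA and ChREBP and with some of the MXD proteins. In the thymus, MYC is best known for the growth of early thymocytes and of cells driven by receptor signals.

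All 6 arrays measured total RNA of CD4 and CD8 double-positive thymocytes from AND.Rag1-/-H-2d mice, held for 7 h on plate-bound I-Ek dimers. The AND receptor recognises a cytochrome c peptide (MCC) on I-Ek, the lack of Rag1 removes other receptors, and the H-2d background does not select the AND receptor, so all groups share 1 receptor and 1 stage. The dimers carried MCC (negative selection signals per the labels), gp250 (positive selection signals) or Hb (non-selecting signals), with 2 arrays each. Cells were thus stimulated on plastic rather than in a thymus, and the labels do not say whether the 2 arrays of a ligand came from separate animals or cultures. The p-values below therefore rest on the spread between arrays, part or all of which may be technical.

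Across the series, 10519 to 11603 probes per array were detected (detection p under 0.05), and the 2 arrays of a ligand correlated at 0.994 over the tested probes. Of 11 markers of double-positive thymocytes with a probe, 10 were detected on both gp250 arrays and on both Hb arrays, and 7 on both MCC arrays. The only probe of Cd8a was not detected on any array, while Cd8b1 was detected with every ligand. Cd4, Rag2 and Ptcra were the ones missing there. Summed deposited signal of that list was 90583 to 93163 under MCC, 155960 to 156793 under gp250 and 154315 to 161787 under Hb. Among other cell types, 5 B cell markers summed to 338 to 371 under MCC, 1469 to 1729 under gp250 and 1586 to 1616 under Hb, and 7 stromal markers to 752 to 768, 1700 to 1931 and 1737 to 1913 in that order. In the same order 6 myeloid markers summed to 901 to 958, 534 to 545 and 572 to 573, 6 NK markers to 199 to 200, 155 to 224 and 230 to 232, and 3 erythroid markers to 2736 to 2812, 3092 to 3709 and 2979 to 3472. These sums are of unscaled signal, whose mean over all probes was 582 to 613 on the MCC arrays and 445 to 488 on the others, and each list had 1 or 2 genes detected on both arrays of a ligand. With MCC against Hb such genes went opposite ways in the NK and stromal lists: Nkg7 and Krt8 rose while Il18r1 and Pecam1 fell. Both tested B cell genes fell, with log2 changes of -2.40 for Cd79b and -0.45 for Cd79a. H2-Ab1 of the myeloid list rose (0.55), and Hba-a1 of the erythroid list fell (-0.53). Klf1, the other tested erythroid gene, went the other way without passing (0.46, limma adjusted p = 0.143). Pax5, Itgam, Itgax, Flt3, Ncr1, Foxn1 and Alas2 were among the listed markers not detected on any array. Cd79b, H2-Ab1, Nkg7, Krt8, Pecam1 and Hba-a1 were detected on both arrays of every ligand. The part of these shifts in the results on MYC network genes was not tested. In bulk RNA, fewer cells of a type and less RNA per cell cannot be told apart.

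The E-box CACGTG, the letters to which pairs of MYC, MXD or MNT with MAX bind, is shown where it occurs near members' own starts. RefSeq promoter windows (GRCm38.p6, 250 bases before to 50 after a start) were matched for 8 members, 10 windows in all. No window was available for Myc, so its own start was not examined. CACGTG, which reads the same on both strands, was in 4 of these windows (40%), against 7.15% of all 32851 windows. Capitals mark the E-box in the stretches around it, written 5′ to 3′ on the strand of the gene.
Max, chr12:76962246-76962281, minus strand: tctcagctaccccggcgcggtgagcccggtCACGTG
Mlx, chr11:101087220-101087285, plus strand: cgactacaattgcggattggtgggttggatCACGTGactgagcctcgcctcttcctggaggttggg
Mnt, chr11:74830771-74830836, plus strand: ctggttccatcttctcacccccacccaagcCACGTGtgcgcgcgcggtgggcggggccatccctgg
Mxd4, chr5:34187894-34187959, minus strand: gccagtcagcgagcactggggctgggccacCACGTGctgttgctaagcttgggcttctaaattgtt
Counted from the start, the E-box lay at -3 to 3 in Max, at -40 to -35 in Mlx, at -123 to -118 in Mnt and at -219 to -214 in Mxd4. These letters were not in the windows of Mycn, Mxd1 and Mxd3 or in any of the 3 windows of Mxi1. A match describes the letters only. Binding was not measured.

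Setting MCC beside Hb asks how the network differs between negative selection signals and signals that select nothing. With MCC, Myc rose while 3 antagonists, Mxd3, Mxd4 and Mxi1, fell. Both probes of Mlx rose, Max rose on its dimmer probe only, and neither probe of Mnt passed the test. Mycn and Mxd1 were not detected on any array. Of the 13 probes, 10 were detected on at least 2 of the 6 arrays and were tested, for 7 of the 9 genes. The test was limma's moderated test with Benjamini-Hochberg adjustment over all 11942 tested probes, here and throughout. Of the 10 tested probes 4 rose and 3 fell, where 26.6% of all tested probes rose and 28.2% fell (54.8% together), so the share of members called lies close to the background and is no result about the network. Taking 1 probe a gene, 2 of 7 members rose and 3 fell with a median of -0.08 (log2), beside 26.2% and 28.8% of 8253 genes and a median of -0.04.

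Myc was measured by a probe that was dim on every array. Its normalized signal (log2 scale) was 6.50 and 6.59 on the 2 MCC arrays, 5.09 and 5.69 with gp250 and 5.20 and 5.04 with Hb. Both MCC arrays lay above all others, and the probe was not detected on either Hb array. Myc was therefore at least 1.79-fold higher with MCC than with Hb (fitted log2 difference 1.43 ± 0.19, SE, limma adjusted p = 0.00118). The SE here and below is limma's, from a moderated variance fitted over all 6 arrays, 2 for each ligand. It therefore includes the spread of the gp250 arrays. The deposited signal of this probe was 85.5 and 90.2 with MCC, 8.11 and 33.2 with gp250 and 13.1 and 5.63 with Hb. The fitted value depends on how signal near background is treated: it was 0.89 with an offset of 50 and 2.22 on the authors' processed values, with a call in both. The probe was tested because of the 2 MCC arrays, where it is high, and with no filter on dim probes its limma adjusted p was 0.00222. The second Myc probe (ILMN_1231123) was below 0 in deposited signal on all 6 arrays, from -33.7 to -10.5, and was not tested. The cause of the difference between the 2 Myc probes was not tested.

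**Figure D1:**
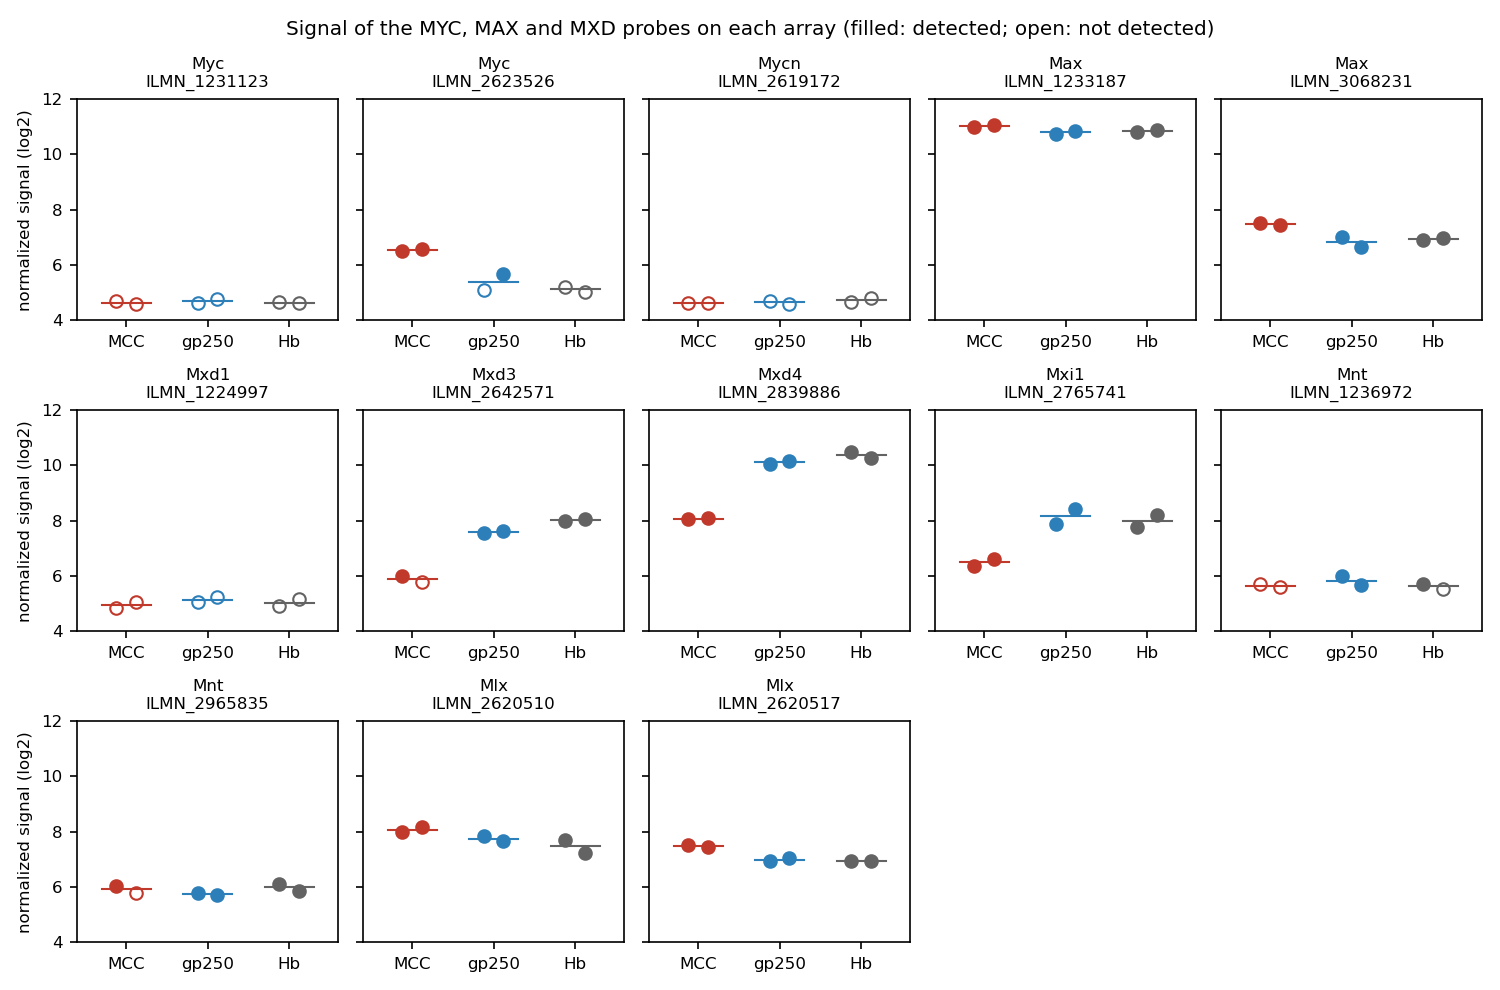
Normalized signal (log2) of all 13 member probes on each array, by ligand. Filled points are detected arrays (detection p under 0.05), open points are not, and the lines are means of 2 arrays. The MCC arrays stand above the others for Myc on 1 probe and below them for Mxd3, Mxd4 and Mxi1.

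Max, the shared partner, was bright and differed little. Its brighter probe (ILMN_1233187) read 10.99 and 11.07 with MCC, 10.72 and 10.86 with gp250 and 10.80 and 10.87 with Hb (normalized log2 signal). MCC lay above both other ligands without overlap, but the difference from Hb was 0.20 ± 0.10 (log2, SE, 95% interval -0.04 to 0.43, limma adjusted p = 0.133) and did not pass. The dimmer probe (ILMN_3068231) read 7.53 and 7.44 with MCC, 7.01 and 6.63 with gp250 and 6.90 and 6.96 with Hb, and it rose by 0.55 ± 0.14 (limma adjusted p = 0.0151). That call was lost without MCC replicate 1 (0.51, limma adjusted p = 0.0746) and without Hb replicate 1 (0.53, adjusted p = 0.0656). The brighter probe was called with median scaling in place of the quantile step (0.37, limma adjusted p = 0.0343), with no scaling between arrays (0.50, adjusted p = 0.00983) and with an intensity trend in the variance (0.20, adjusted p = 0.0374). Without scaling, the median of all tested probes was 0.22 higher with MCC, so the shift of this probe relative to the array was smaller than 0.50.

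Mlx, the MAX-like partner of MondoA, was called on both of its probes. The brighter (ILMN_2620510) read 7.99 and 8.15 with MCC, 7.84 and 7.66 with gp250 and 7.69 and 7.24 with Hb (normalized log2 signal). The MCC arrays were the highest, and gp250 and Hb overlapped. Its rise of 0.61 ± 0.17 against Hb (log2, SE, limma adjusted p = 0.0211) depended on single arrays. It was 0.38 without Hb replicate 2 (limma adjusted p = 0.0788), 0.69 without MCC replicate 1 (adjusted p = 0.0515) and 0.53 without MCC replicate 2 (adjusted p = 0.103). The dimmer probe (ILMN_2620517) read 7.52 and 7.44 with MCC, 6.92 and 7.06 with gp250 and 6.96 and 6.92 with Hb. It rose by 0.54 ± 0.09 (limma adjusted p = 0.00355) and kept its call in all 15 alternatives.

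Mxd4, which encodes an MXD protein found in many differentiating cells, had the lowest fitted change among the members tested. The order of Mxd4 and Mxd3 depends on how signal near background is treated: on the authors' processed values Mxd3 was lower (-2.53 against -2.37). Its normalized signal (log2) was 8.07 and 8.09 with MCC, 10.06 and 10.14 with gp250 and 10.47 and 10.25 with Hb. The 3 ligands did not overlap, but the difference between gp250 and Hb did not pass (limma adjusted p = 0.758). MCC lay far below both other ligands. Mxd4 fell by 2.28 ± 0.11 on the log2 scale with MCC, 4.87-fold (limma adjusted p = 1.31e-05). Of 8253 tested genes, 140 had a lower fitted value in this comparison.

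Mxd3, an antagonist known from dividing cells, fell by a similar amount. It read 6.02 and 5.80 with MCC, 7.57 and 7.63 with gp250 and 7.97 and 8.05 with Hb (normalized log2 signal). All 3 ligands were apart, in the order Hb, gp250, MCC, but the difference between gp250 and Hb did not pass (limma adjusted p = 0.716). The probe was detected on 1 of the 2 MCC arrays. Its fall with MCC was 2.10 ± 0.11 on the log2 scale, written as a log2 fold change of -2.10 (4.28-fold lower, limma adjusted p = 1.89e-05), and 178 genes had a lower value.

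Mxi1, also called MXD2 in humans, spread more between replicates. It read 6.36 and 6.62 with MCC, 7.88 and 8.42 with gp250 and 7.77 and 8.21 with Hb (normalized log2 signal). MCC lay below all other arrays, while gp250 and Hb overlapped. The log2 fold change with MCC against Hb was -1.50 ± 0.22 (2.83-fold lower, limma adjusted p = 0.00178), with 353 genes lower. The calls of Mxd3, Mxd4 and Mxi1 held in all 15 alternatives, with fitted values of -2.53 to -1.63, -2.39 to -1.996 and -1.75 to -1.22.

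Mnt, the antagonist that most cell types express throughout growth, was read near background by 2 probes. The brighter (ILMN_2965835) read 6.05 and 5.78 with MCC, 5.80 and 5.70 with gp250 and 6.12 and 5.86 with Hb (normalized log2 signal). The MCC arrays overlapped both other ligands, while both gp250 arrays lay below both Hb arrays. The difference of this probe between MCC and Hb was -0.08 ± 0.14 (log2, 95% interval -0.41 to 0.26, limma adjusted p = 0.669). The other probe differed by 0.02 ± 0.13 (interval -0.30 to 0.34, limma adjusted p = 0.909) and was detected on neither MCC array. The offset draws differences at such dim probes towards 0.

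Mycn and Mxd1 have 1 probe each, and neither was detected. Deposited signal ran from -29.4 to -8.78 for Mycn and from -6.49 to 15.5 for Mxd1, with detection p of 0.658 to 0.987 and 0.139 to 0.553. Levels that these probes do not separate from background could not be compared between ligands.

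**Figure D2:**
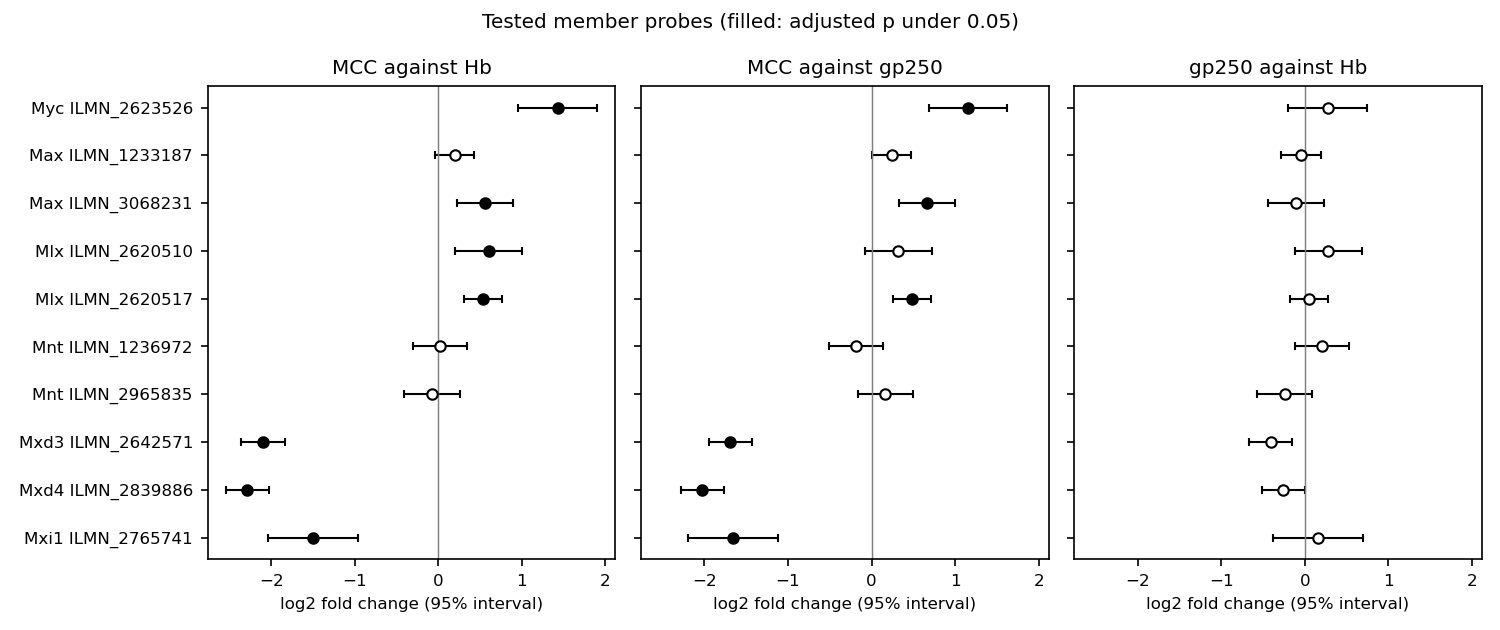
Fitted log2 fold changes of the 10 tested member probes in 3 comparisons, with 95% intervals from limma (2 arrays per ligand). Filled points passed an adjusted p of 0.05. Myc lies to the right and Mxd3, Mxd4 and Mxi1 to the left in both comparisons with MCC, and no point is filled for gp250 against Hb.

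Setting gp250 beside Hb asks the same of positive selection signals. None of the 10 tested member probes passed (0 called, as for 0% of all 11942 probes; smallest adjusted p of limma over all probes 0.716). For the 7 probes of Max, Mxd3, Mxd4, Mxi1 and Mlx, which were detected on all gp250 and Hb arrays, the 95% intervals stayed short of a 2-fold difference both ways. The probes of Myc and Mnt lie so near background that the offset limits their intervals. At an unadjusted p under 0.05 there were 2 of the 10, Mxd3 and Mxd4, where 6.55% of all probes reached that level (782 probes). Mxd3 differed by -0.41 ± 0.11 (log2, interval -0.67 to -0.15, limma adjusted p = 0.716), and both gp250 arrays lay below both Hb arrays. Mxd4 differed by -0.26 ± 0.11 (interval -0.51 to -0.00, limma adjusted p = 0.758), also without overlap. Both differences fail the adjustment. The brighter Mnt probe also had both gp250 arrays below both Hb arrays, and the share of all probes with such separation was not counted. Mxi1, the other antagonist that fell with MCC, differed by 0.16 ± 0.22 (interval -0.38 to 0.70). Myc differed by 0.27 ± 0.19 (interval -0.20 to 0.74, limma adjusted p = 0.888), and by 0.56 on the authors' processed values, where it was not called either. Its probe was detected on gp250 replicate 2 and not on gp250 replicate 1, and without replicate 2 the fitted difference was -0.03. The brighter probes of Max, Mlx and Mnt differed by -0.04, 0.28 and -0.24, with intervals that include 0.

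MCC against gp250 sets the 2 selecting ligands side by side and shares its MCC arrays with the first comparison, so it is not independent of it. Here 3 of the 10 member probes rose and 3 fell, beside 27.1% and 28.6% of all tested probes (55.8% together). Myc rose by 1.15 ± 0.19 (log2, limma adjusted p = 0.00288), with both MCC arrays above both gp250 arrays, of which 1 was not above background. This value ran from 0.74 with an offset of 50 to 1.66 on the authors' processed values, with a call in both. The 3 antagonists fell, with log2 fold changes of -2.02 ± 0.11 for Mxd4 (limma adjusted p = 2.06e-05), -1.69 ± 0.11 for Mxd3 (adjusted p = 4.6e-05) and -1.66 ± 0.22 for Mxi1 (adjusted p = 0.00112). The dimmer probes of Max (0.66 ± 0.14) and Mlx (0.49 ± 0.09) rose, while their brighter probes did not pass (0.24 ± 0.10 and 0.32 ± 0.17). Both of these were called with median scaling (Max 0.42, Mlx 0.45, limma adjusted p = 0.0196 and 0.047) and with no scaling (0.59 and 0.63, adjusted p = 0.00426 and 0.0116), where the median of all tested probes was itself 0.27 higher without scaling. Max also passed with a variance trend (0.24, limma adjusted p = 0.013). Those of Mnt differed by 0.17 and -0.19 and did not pass.

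**Figure D3:**
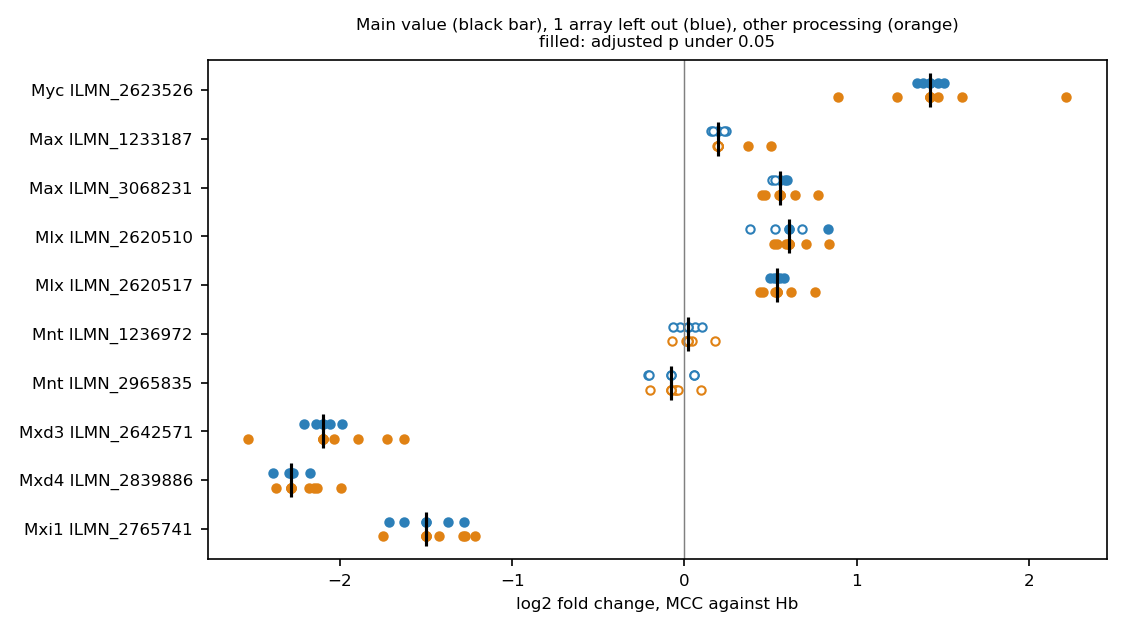
Log2 fold change of MCC against Hb for the 10 tested member probes under each alternative. The black bar is the main value, blue points leave out 1 array, orange points change the processing, and open points missed an adjusted p of 0.05. Myc, Mxd3, Mxd4, Mxi1 and the dimmer Mlx probe stay filled throughout, and the points of Mnt fall on both sides of 0.

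The wider network was taken from a list of 4 relatives: Mycl, another MYC gene, Mga, a MAX-binding repressor, and Mlxip (MondoA) and Mlxipl (ChREBP), the partners of MLX. Mga was detected on all 6 arrays and read 6.62 and 6.96 with MCC and 6.54 and 6.61 with Hb (normalized log2 signal), a difference of 0.21 ± 0.13 (limma adjusted p = 0.22) that did not pass. Mlxipl was just above background on both MCC arrays and on neither Hb array, and its fitted difference of 0.41 ± 0.18 did not pass either (limma adjusted p = 0.103). The probe of Mycl and the 4 probes of Mlxip were not detected on any array. With MCC against Hb 0 of these 2 tested genes were called, beside 26.2% of all tested genes rising and 28.8% falling. So few genes cannot be compared with that share.

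Genes that MYC is known to raise in other cells were taken from a list of 36, of which 32 were tested. With MCC 29 rose and 1 fell, with a median log2 change of 1.55, beside 26.2% of all tested genes rising and their median of -0.04. This list was chosen with earlier results of these arrays known and its direction is therefore not independent evidence. In addition, the brightest probes of the listed genes Srm, Shmt1 and Ybx3 were detected on the MCC arrays only. They were tested because of the arrays where they are high, so the filter favoured their rises. Ccnd2, a cyclin that starts the cell cycle, read 10.16 and 10.48 with MCC, 5.90 and 6.07 with gp250 and 6.39 and 6.01 with Hb (normalized log2 signal), a 17.4-fold rise against Hb (limma adjusted p = 8.46e-06). Apex1, a DNA repair enzyme, rose 9.53-fold on its brighter probe (log2 3.25). Its other probe (ILMN_2918114) was not detected on either Hb array and was at least 6.43-fold higher under MCC. Srm, the spermidine synthase gene, rose on 3 probes that differed in size. Its brightest probe (ILMN_2809611) was not detected on either Hb array and was at least 31.6-fold higher under MCC, while ILMN_1225880, detected on both, rose 15.2-fold and ILMN_2630641, detected on 1 of the 2, rose 21.5-fold. The probe of Shmt1, a serine and folate enzyme, was below background on the Hb arrays and at least 3.63-fold higher under MCC. Npm1 and Tfam did not pass (log2 0.32 and 0.08). Tert, the telomerase subunit, went the other way: it read 7.96 and 8.07 with Hb, was not detected with MCC and was at least 4.63-fold lower there. For gp250 against Hb, 0 of the 32 were called and their median was -0.04.

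Genes that MYC is known to lower did not move one way. Of 10 listed genes 8 were tested, of which 3 rose and 4 fell with MCC, with a median of -0.52, beside 26.2% of all tested genes rising, 28.8% falling and a median of -0.04. The falls were Cdkn1b, which encodes the cyclin kinase inhibitor p27 (3.43-fold lower), Ccng2, a cyclin of resting cells (2.86-fold), Cdkn2c, another kinase inhibitor (1.98-fold), and Btg1, an antiproliferative gene (1.81-fold). Cdkn1b read 7.80 and 8.28 with MCC, 9.90 and 9.89 with gp250 and 9.95 and 9.69 with Hb (normalized log2 signal), with MCC below the rest. The rises were the stress gene Ndrg1 (3.12-fold), the damage gene Gadd45a (2.80-fold) and Cdkn1a, which encodes the kinase inhibitor p21. Its 2 probes rose by different amounts, 0.54 and 1.26 on the log2 scale.

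Txnip and Arrdc4 are arrestin-like genes known as direct targets of MondoA with MLX that answer to glucose, and they make up the 2 tested members of a list of 3. Txnip read 11.22 and 11.09 with MCC, 13.76 and 13.63 with gp250 and 13.58 and 13.67 with Hb (normalized log2 signal), so that MCC lay below all other arrays and the other ligands overlapped. It fell by 2.47 ± 0.10 on the log2 scale (5.54-fold lower, limma adjusted p = 8.64e-06). Arrdc4 was 2.47-fold lower (log2 -1.30, limma adjusted p = 7.36e-05). CACGTG was in 1 of 5 promoter windows of this list (20%), beside 7.15% of all windows. It lay at -193 from the start of Arrdc4, and Txnip had no match. For gp250 against Hb they differed by 0.07 ± 0.10 and 0.08 ± 0.09 and did not pass.

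Of 16 tested cofactors of MYC and members of SIN3 corepressors 6 rose and 3 fell with MCC, with a median of 0.08, beside 26.2% rising, 28.8% falling and a median of -0.04 over all tested genes. Kat2a, the GCN5 acetyltransferase, rose 2.30-fold, the helicase genes Ruvbl1 and Ruvbl2 rose 2.10-fold and 1.61-fold, and the SIN3-associated gene Sap30 1.86-fold. Both SIN3 scaffolds, to which MXD proteins bind, fell: Sin3b by 1.10 ± 0.14 and Sin3a by 0.40 ± 0.08 on the log2 scale (limma adjusted p = 0.00094 and 0.00774), and Cdk9, the kinase that releases paused polymerase, was 1.37-fold lower. Without scaling between arrays 1 of these cofactors fell in place of 3, and the share of all genes falling under that setting was not recomputed. Among genes that turn MYC protein over, 4 of 7 fell and 0 rose, with a median of -0.45, beside the same 28.8%, 26.2% and -0.04 over all tested genes. They were the ubiquitin ligase genes Fbxo32 (1.84-fold lower), Skp2 (1.74-fold) and Fbxw7 (1.30-fold), and the kinase gene Gsk3b (1.53-fold). Fbxw7 passed narrowly (limma adjusted p = 0.0445), and 3 turnover genes in place of 4 fell in 8 of the 15 alternatives.

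**Figure D4:**
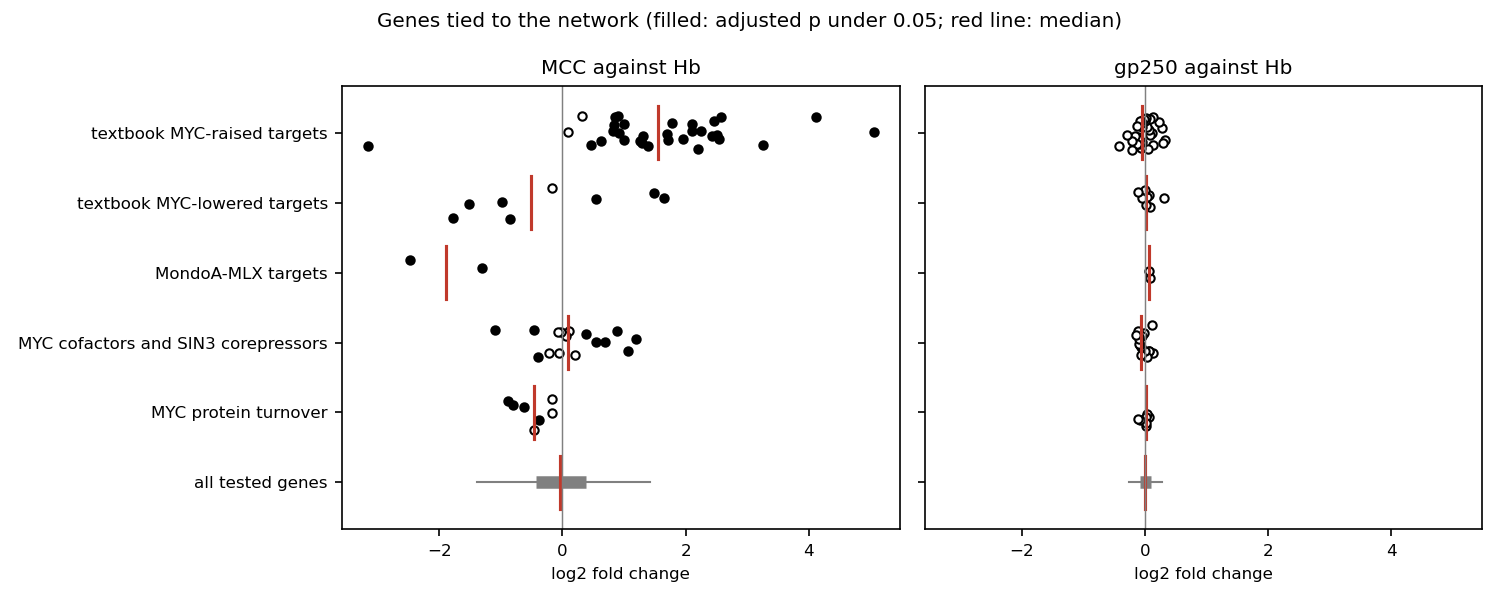
Log2 fold changes of tested genes tied to the network, 1 probe a gene, for MCC against Hb and gp250 against Hb. Filled points passed an adjusted p of 0.05, red lines are medians, and the grey bars span the middle 50% and the thin lines the middle 90% of all 8253 tested genes. With MCC 29 of 32 MYC-raised genes lie filled to the right, and with gp250 no point is filled.

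The genes most like Myc and Mxd4, the members with the highest and the lowest fitted change (Mxd3 being lowest on the authors' processed values), were found by the Euclidean distance between mean-centred log2 signals over the 6 arrays. Nearest to Myc were M6pr (distance 0.20), Rmdn2 (0.22), Pxdc1 (0.25), Znhit6 (0.26) and Prxl2a (0.29), of which only M6pr was detected on both Hb arrays. Nearest to Mxd4 were Ica1l (0.18), Spats2l (0.20), Spata6 (0.23), Arhgef39 (0.23) and Spdl1 (0.25), all with lower signal under MCC than under Hb. Ica1l and Spats2l were not detected on either MCC array. With 54.8% of all tested probes called between MCC and Hb, many genes share such a pattern, and likeness here describes these 6 arrays only.

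CACGTG was in 9 of 36 promoter windows of the MYC-raised genes (25%) and in 1 of 13 windows of the MYC-lowered genes (7.69%), beside 7.15% of all windows. The matched MYC-raised genes were Apex1, Ldha, Nme1, Hspd1, Eif4e, Eif4a1, Cdk4 and Slc16a1. Nme1 was counted more than once, at -29 and -18 from the start, and Cdk4 and Slc16a1 had no tested probe. It was in 1 of 21 windows of the cofactors (4.76%) and in 1 of 11 of the turnover genes (9.09%). These shares describe letters near the starts and were not tested.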

How the data were processed

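Biotinylated cRNA was hybridised to 1-colour Illumina arrays, per the labels. An intensity without normalization and its detection p-value were deposited per probe by the authors, per the file headers. The intensity goes below 0 on every array, so a background had been subtracted. Their processed table holds the same intensity multiplied by 1 factor per array (0.825 to 1.13) to a common mean of 505, with medians of 17.9 to 21.6, on a linear scale and not centred, and served as an alternative. The sources used here do not give the scanner software. Columns were assigned to samples through the labels' sample numbers.

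Intensities were corrected by normexp (limma 3.58.1 in R 4.3.3), with control parameters inferred from detection p-values and an offset of 16. Arrays were then quantile-normalized, and log2 was taken afterwards. A probe was tested if detected on at least 2 of 6 arrays (11942 probes, 8253 genes). One linear model with a mean per ligand (3 residual degrees of freedom) gave moderated tests, adjusted by Benjamini-Hochberg within each comparison, threshold 0.05. Of the probes, 23978 had a symbol, and 23962 were matched by Entrez number to RefSeq (GRCm38.p6, names only). The model was tested on simulated data.

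"At least" folds set the brighter ligand against a floor on each array where the other ligand was undetected: the array's lowest detected signal, or the probe's own value if that was higher. Gene lists use the brightest tested probe. Named were all members, the 4 relatives, up to 4 called rises and falls per list, and the 5 genes nearest to 2 members. Members and lists were chosen with earlier results of these data known. Npm1 and Tfam, the markers of other cell types, and the genes named for a promoter match were named after their values were seen. Alternatives were the background correction, offset, scaling, the processed table, the filter, a variance trend, the replicate number as a block, and leaving out each array.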

Additional observations from a re-analysis of the deposited data

How the results depend on the processing

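Counts of called member probes were recomputed under 15 alternatives for each comparison. Counts of called list genes were recomputed for MCC against Hb only, and counts over all probes for gp250 against Hb only. The 3 falls of member probes held in each, for MCC against Hb and MCC against gp250, and gp250 against Hb gave 0 calls in each, over members and over all probes (smallest adjusted p of limma 0.403 over all probes). The 4 member rises with MCC against Hb ran from 2 (without MCC replicate 1) to 4 with 1 array left out, and to 5 otherwise. The 3 rises against gp250 became 5 with median scaling without the quantile step and 5 with no scaling between arrays. The median of all tested probes was then 0.09 and 0.27 higher with MCC than with gp250. Shares of all probes or genes called in the MCC comparisons were not recomputed under the alternatives. The member and list counts given here for those comparisons therefore have no background beside them. Without scaling, falling cofactors numbered 1 in place of 3. The MYC-raised list had 27 to 31 rises. Fold changes that changed sign were all uncalled. For MCC against Hb, Mnt (ILMN_2965835) gave 0.10 without scaling and -0.21 to 0.058 with 1 array left out, and Mnt (ILMN_1236972) gave -0.072 on the authors' processed values and -0.065 to 0.10 with 1 array left out. For MCC against gp250 this probe gave 0.015 without scaling. For gp250 against Hb, Mlx (ILMN_2620517) gave -0.0073 without scaling. With 1 array left out, gp250 against Hb ran from -0.018 to 0.12 for that Mlx probe, -0.30 to 0.082 for Max (ILMN_3068231), -0.11 to 0.027 for Max (ILMN_1233187), -0.11 to 0.43 for Mxi1 and -0.026 to 0.57 for Myc. Each of these ranges includes both signs. The cause of these changes was not tested.

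The labels do not say what a replicate number shares, and deviations of same-numbered arrays from their ligand's mean correlated at -0.02 to 0.02. With the replicate number as a block, 4 member probes rose and 3 fell with MCC against Hb, 29 MYC-raised genes rose, 5 cofactors rose in place of 6 and 3 turnover genes fell in place of 4, as they did with median scaling, no scaling, no filter on dim probes, and without MCC replicate 1, gp250 replicate 1, gp250 replicate 2 or Hb replicate 2. The 2 arrays per ligand limit the precision, and Myc, Mnt and the probes of relatives lie so near background that smaller changes would not show. Mnt was left out by the stricter filter on dim probes.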
